A study of Homo sapiens with 4 samples.

Results

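The hypoxia-inducible factor (HIF) targets and glycolysis enzymes were 35 genes chosen by name, and 34 of them matched a row among the 26518 Ensembl genes measured. They were 17 glycolysis enzymes with values and 17 other genes, made up of the factor gene HIF1A, 13 of its standard targets outside glycolysis and 3 sugar or lactate carriers. The aldolase gene ALDOA matched no row and is not analysed here. RNA-seq values were TPM (transcripts per a fixed library total, after scaling for gene length) of MDA-MB-468, a human cell line established from a triple-negative breast cancer. There were 2 libraries of cells infected with the pGIPZ-CTRL lentivirus (shControl) and 2 of cells infected with a SASH1-shRNA lentivirus (shSASH1), both kept under puromycin to give stable clones and grown in DMEM with 5% serum. SASH1 is a signalling scaffold. Oxygen tension, lactate and protein levels were not measured, and the labels do not give the number of hairpins or clones, or say whether the 2 libraries of a group were separate cultures, so the p-values cover only the spread between these libraries, which may be technical.

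A HIF is a pair of proteins, an oxygen-regulated alpha subunit and a constant partner from ARNT. HIF-1 holds the alpha subunit from HIF1A, and HIF-2 that from its relative EPAS1. In oxygenated cells prolyl hydroxylases of the EGLN family mark the alpha subunit for destruction through the VHL ubiquitin ligase, so the factor is mainly set by protein stability and a HIF1A transcript level is not a measure of its activity. Stabilised HIF binds a short DNA core, ACGTG or GCGTG, and raises genes for blood vessel growth, acid handling, collagen modification and mitochondrial clearance, together with nearly every step of glycolysis. Many tumour cells run glycolysis at a high rate in the presence of oxygen as well.

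SASH1 stood at 14.99 and 13.03 TPM in shControl and at 3.65 and 4.01 TPM in shSASH1, a ratio of means of 3.66 in the labelled direction (log2 change -1.63, limma adjusted p = 0.00391). Of the 14458 genes tested, those averaging 1 TPM or more, 2712 were higher and 1918 lower in shSASH1, or 32% called. After quantile normalization these were 2280 higher and 2434 lower. The median log2 change of all tested genes was 0.06 on the log2(TPM + 1) scale, which understates the change of low genes and is used for every log2 value here. The 7 epithelial markers fixed for the line, among them EPCAM, KRT8 and KRT18, were at 48.2 TPM or more in every library. The summed level of 7 fibroblast markers was 6.42 to 7.15 TPM in shControl and 9.37 to 11.5 TPM in shSASH1, with COL1A1 the 1 marker of the 7 that reached 1 TPM and COL1A2 and LUM listed at 0 throughout. That of 6 leukocyte markers was 33.8 to 40.6 and 34.3 to 98.7 TPM, nearly all from CD14, while PTPRC stayed at 0.104 TPM or less, and that of 5 endothelial markers was 3.66 to 4.07 and 3.16 to 4.13 TPM. The part of other cells in the results was not tested.

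The HIF class outside glycolysis, which takes in HIF1A and the carriers, held 5 genes that rose, while 14 of the 16 tested glycolysis enzymes did not pass. Of the 17 genes of the first class, 14 reached the minimum and were tested, and 5 rose, 1 fell and 8 did not pass, against 18.8% of all tested genes called higher and 13.3% called lower. Their median log2 change was 0.40. Of the 17 measured glycolysis enzymes 16 were tested, and 2 rose, 0 fell and 14 did not pass, with a median log2 change of 0.04. After median-of-ratios scaling or quantile normalization the 2 calls were 1 higher (PFKFB3) and 1 lower (GPI). The 12.5% of enzymes called lies under the 32% of all genes, and the 42.9% of the other class lies above it. The difference between the classes was not tested, and both counts come from the fit over all genes. A longer list of further HIF targets, given further on, had 25.9% called, under the 32% of all genes. Summed over the first class, the level was 373 and 362 TPM in shControl and 569 and 530 TPM in shSASH1. The 13 targets alone, without HIF1A and the carriers, summed to 181 and 174 TPM in shControl and to 263 and 249 TPM in shSASH1. Summed over the 17 enzymes it was 5247 and 5303 TPM in shControl and 5226 and 5221 TPM in shSASH1, a difference of means of -0.97%. The groups did not overlap for any of these sums. Each gave a two-sided exact permutation p of 0.33, the smallest that 2 libraries against 2 allow. In bulk RNA, a change in the number of cells that express a gene and a change in RNA per cell cannot be told apart.

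**Figure D1:**
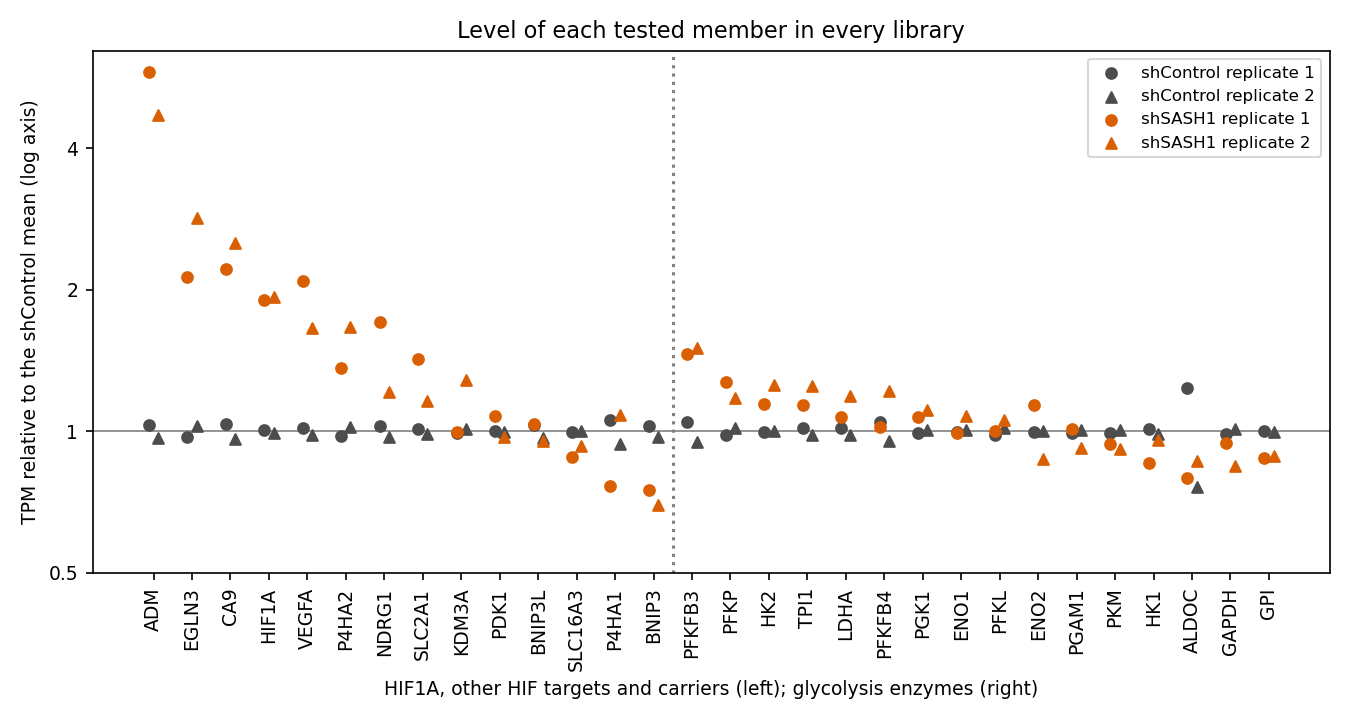
TPM of each of the 30 tested members in every library, divided by that gene's shControl mean, on a log axis, with grey symbols for shControl, orange for shSASH1, circles for replicate 1 and triangles for replicate 2. On the left ADM, EGLN3, CA9, HIF1A and VEGFA stand well above 1 in both shSASH1 libraries, while most glycolysis enzymes on the right stay close to 1 in all 4.

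HIF1A itself (hg38 chromosome 14, 61695513 to 61748259, plus strand, protein-coding) was at 80.4 and 79.5 TPM in shControl and at 152 and 155 TPM in shSASH1. The libraries of each group were within a few TPM of each other and the groups lay far apart. HIF1A rose 1.92-fold, from 80.0 ± 0.651 to 154 ± 1.79 TPM (SD, n = 2 per group), with a log2 change of 0.93 ± 0.05 (SE) and adjusted p = 0.00246. Its exons overlap those of the same-strand gene AL137129.1 and the opposite-strand gene HIF1A-AS1 in the annotation. Whether reads were counted by strand, or how reads shared by overlapping genes were counted, is not given in the sources used here.

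Around HIF1A, 13 of 15 listed genes of the HIF machinery were tested, and 3 rose and 3 fell, with a median log2 change of -0.01. The called share was 46.2%, beside 32% of all tested genes, and the difference was not tested. The second alpha subunit EPAS1 rose from 76.8 ± 2.69 to 101 ± 1.49 TPM (limma log2 change 0.39 ± 0.06, adjusted p = 0.0137). ARNT, the shared partner, rose from 32.7 ± 1.27 to 46.2 ± 3.55 TPM (0.49 ± 0.09, adjusted p = 0.0183). CITED2, which competes with HIF for the coactivators EP300 and CREBBP, stood at 94.1 and 97.7 TPM in shControl and at 54.0 and 34.2 TPM in shSASH1, and fell by 1.14 on the log2 scale (adjusted p = 0.0236). The prolyl hydroxylase EGLN2 fell from 12.8 ± 0.809 to 8.11 ± 0.991 TPM (limma log2 change -0.60, adjusted p = 0.0297). The other 2 called genes, named after their values were seen, were HIF1AN and ELOB. HIF1AN, the asparaginyl hydroxylase that inhibits HIF alpha subunits, rose from 19.5 ± 0.383 to 25.1 ± 0.959 TPM (0.35 ± 0.08, adjusted p = 0.0340). ELOB, elongin B of the VHL ligase, fell from 256 ± 7.73 to 212 ± 0.810 TPM (-0.27 ± 0.05, adjusted p = 0.0254). Of the hydroxylases that act on HIF alpha subunits, 1 of this list thus rose and 1 fell at the RNA level, and EGLN1 did not pass. Centred on its chromosomal neighbourhood, as described further on, ARNT had a log2 change of 0.17 (adjusted p = 0.188) and CITED2 -0.89 (adjusted p = 0.0605), and EGLN2 missed the threshold without a filter (adjusted p = 0.0590) and with the replicate number as a block (0.0510).

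Among the secreted and surface products of HIF, ADM, VEGFA and CA9 rose. ADM encodes adrenomedullin, a peptide that widens and builds vessels (chromosome 11, 10304680 to 10307397, plus strand). It was at 4.55 and 4.26 TPM in shControl and at 25.6 and 20.8 TPM in shSASH1. Both shSASH1 libraries were thus several times above both controls, a ratio of means of 5.26, and ADM had the largest log2 change of the 30 tested members (2.15 ± 0.14, adjusted p = 0.00293). VEGFA, the main vessel growth factor (chromosome 6, 43770184 to 43786487, plus strand), was at 45.0 and 43.5 TPM in shControl and at 92.5 and 73.3 TPM in shSASH1. It rose 1.87-fold (log2 change 0.88 ± 0.13, adjusted p = 0.0112), with shSASH1 replicate 1 the higher of its pair. CA9, carbonic anhydrase IX, a cell surface enzyme that exports acid equivalents (chromosome 9, 35673856 to 35681159, plus strand), was at 8.80 and 8.15 TPM in shControl and at 18.8 and 21.4 TPM in shSASH1. It rose 2.37-fold (log2 change 1.15 ± 0.11, adjusted p = 0.00539), and its exons overlap those of the opposite-strand gene ARHGEF39.

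The rise of CA9 was the size of the change in the genes around it. The 86 other tested genes within 10 Mb of CA9 on either side had a median log2 change of 1.20, with 56 called higher and 5 lower. With each gene centred on its window, CA9 had a log2 change of -0.04 (adjusted p = 0.784). The corresponding window medians were -0.04 for ADM, 0.19 for VEGFA, 0.12 for EGLN3 and 0.17 for HIF1A. Centred in the same way these 4 genes kept a higher level in shSASH1 and passed the threshold, at 2.18 for ADM (adjusted p = 0.00355), 0.70 for VEGFA (0.0330), 1.07 for EGLN3 (0.0106) and 0.77 for HIF1A (0.00596). The class still held 5 genes called higher, the fifth being NDRG1, and 0 called lower. Its median log2 change was 0.06 after centring, against 0.40 before. Of all 14458 tested genes, 1921 were called higher and 1704 lower after centring. Copy number was not measured.

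**Figure D2:**
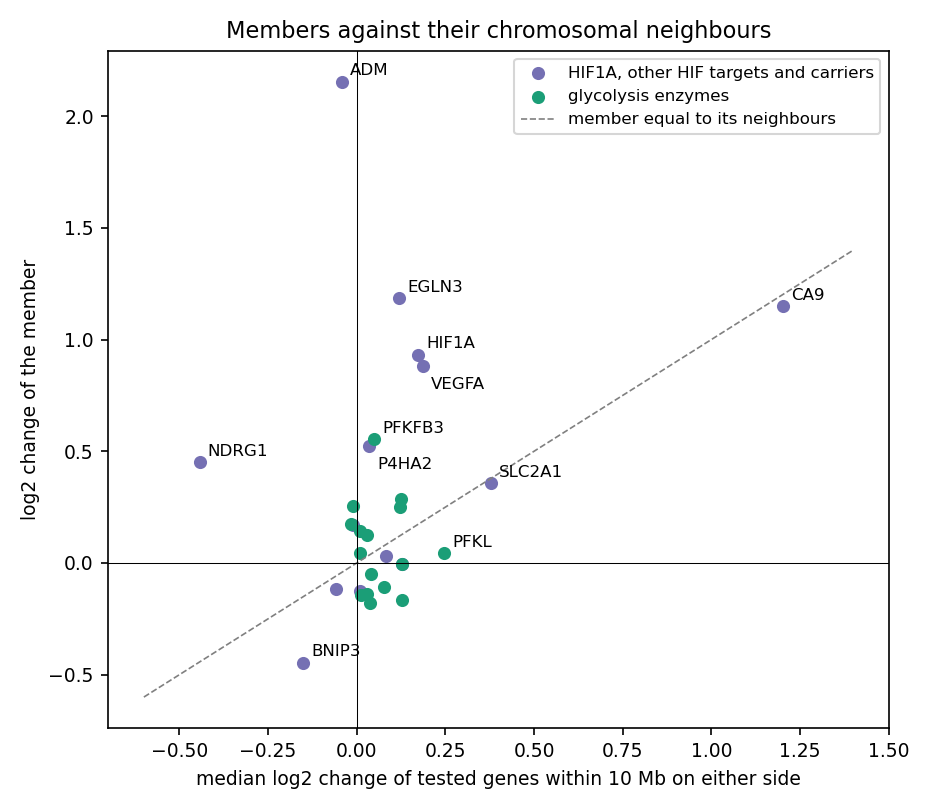
Each point is 1 of the 30 tested members, with the median log2 change of the tested genes within 10 Mb on either side on the horizontal axis and the member's own log2 change on the vertical axis. CA9 (1.20 and 1.15) and SLC2A1 (0.38 and 0.36) lie close to the dashed line of equality, whereas ADM, EGLN3, HIF1A and VEGFA lie well above it and NDRG1 lies above it from a negative neighbourhood value of -0.44.

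To set the levels beside the DNA core that HIF reads, the RefSeq promoter windows of the members (build GRCh38.p14) were searched for ACGTG and GCGTG on both strands in the 250 bases before each start. The palindrome CACGTG counts as a match on each strand. Windows were listed for 31 of the 35 members, 53 in all, some of them overlapping, but not for VEGFA, NDRG1, BNIP3L or SLC2A3. A match was found in 34 of the 53 windows (64.2%) and in 43.2% of all 35116 windows. The windows of ADM (chr11:10304823-10305072, plus strand) and CA9 (chr9:35673678-35673927, plus strand), which rose, and of BNIP3 (chr10:131981924-131982173, minus strand), which fell, are shown 5′ to 3′ up to the base before the start, with each match in capitals.
ADM: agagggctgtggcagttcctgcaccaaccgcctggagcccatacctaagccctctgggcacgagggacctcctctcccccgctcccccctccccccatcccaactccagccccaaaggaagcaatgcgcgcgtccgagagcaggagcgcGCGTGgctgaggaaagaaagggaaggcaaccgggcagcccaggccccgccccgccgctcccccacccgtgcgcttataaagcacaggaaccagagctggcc
CA9: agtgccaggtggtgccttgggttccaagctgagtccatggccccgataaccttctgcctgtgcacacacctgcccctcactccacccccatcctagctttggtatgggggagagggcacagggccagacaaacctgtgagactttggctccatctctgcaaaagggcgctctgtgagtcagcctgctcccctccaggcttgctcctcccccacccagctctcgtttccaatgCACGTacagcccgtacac
BNIP3: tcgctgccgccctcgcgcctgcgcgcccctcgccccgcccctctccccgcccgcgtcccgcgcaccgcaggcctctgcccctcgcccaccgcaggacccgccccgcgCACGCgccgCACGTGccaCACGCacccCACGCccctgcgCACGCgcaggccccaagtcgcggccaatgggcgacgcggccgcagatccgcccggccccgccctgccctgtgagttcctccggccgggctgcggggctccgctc
ADM and CA9 had 1 match each, the one in CA9 ending 13 bases before the window's end, whereas the window of BNIP3 had 6. EGLN3 and P4HA2 had 0 matches in their windows. A match is a string of letters and not a measured binding site, and binding was not measured.

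The oxygen-dependent hydroxylases did not move as a group. EGLN3, a prolyl hydroxylase that acts on HIF alpha subunits and is itself a HIF target (chromosome 14, 33924231 to 34462774, minus strand), was at 6.46 and 6.85 TPM in shControl and at 14.2 and 19.0 TPM in shSASH1. It rose 2.49-fold (log2 change 1.19 ± 0.16, adjusted p = 0.0106), and relative to EGLN1, the main HIF hydroxylase in most cells, its level went from 0.172 and 0.195 to 0.323 and 0.471. P4HA2, a catalytic subunit of the collagen prolyl hydroxylase (chromosome 5, 132191838 to 132295315), was at 5.98 and 6.27 TPM in shControl and at 8.35 and 10.2 TPM in shSASH1. The groups did not overlap, but P4HA2 did not pass (log2 change 0.52 ± 0.14, adjusted p = 0.0522). Its paralog P4HA1 had overlapping groups, at 15.8 and 14.1 against 11.4 and 16.2 TPM (adjusted p = 0.634), and within a library the ratio of P4HA2 to P4HA1 was 0.378 and 0.445 in shControl and 0.731 and 0.632 in shSASH1. The histone demethylase KDM3A was at 14.6 and 14.9 TPM against 14.7 and 19.0 TPM, with shSASH1 replicate 1 at the control level (adjusted p = 0.397).

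Of the 3 members that act on mitochondria, BNIP3 fell and BNIP3L and PDK1 did not pass. BNIP3, an outer membrane receptor for mitophagy (chromosome 10, 131966455 to 131982013, minus strand), was at 26.2 and 24.7 TPM in shControl and at 19.1 and 17.7 TPM in shSASH1. It fell by 0.45 on the log2 scale (SE 0.09, adjusted p = 0.0233), and the fall was -0.28 with adjusted p = 0.0609 after centring on its window. Its paralog BNIP3L was at 39.1 and 36.5 TPM against 39.3 and 36.0 TPM, a log2 change of -0.01 with a 95% interval of -0.22 to 0.21. The ratio of BNIP3 to BNIP3L within a library was 0.669 and 0.675 in shControl and 0.485 and 0.493 in shSASH1. PDK1, the kinase that shuts pyruvate dehydrogenase under hypoxia, was at 8.60 and 8.59 TPM against 9.30 and 8.35 TPM (log2 change 0.03, interval -0.27 to 0.34). Intervals are for single genes and are not adjusted for the number tested.

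The remaining targets were low in this line. NDRG1, a stress-responsive protein (chromosome 8, 133237171 to 133302022), was at 4.98 and 4.72 TPM in shControl and at 8.28 and 5.89 TPM in shSASH1 without passing the threshold (log2 change 0.45 ± 0.19, adjusted p = 0.134). The value was 0.24 without shSASH1 replicate 1 (adjusted p = 0.167) and 0.67 without shSASH1 replicate 2 (0.0268). Of the 54 tested genes around it 1 was called higher and 24 lower, with a median log2 change of -0.44, and centred on them NDRG1 had a log2 change of 0.92 with adjusted p = 0.0352. ANKRD37, a small ankyrin repeat protein, and CA12, a second surface carbonic anhydrase, lay under the minimum and were not tested. ANKRD37 was at 0.681 and 0.840 TPM in shControl and at 1.08 and 1.19 TPM in shSASH1. CA12 was at 0.658 and 0.791 TPM in shControl and at 0.501 and 0.273 TPM in shSASH1, so that it went the other way from CA9.

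**Figure D3:**
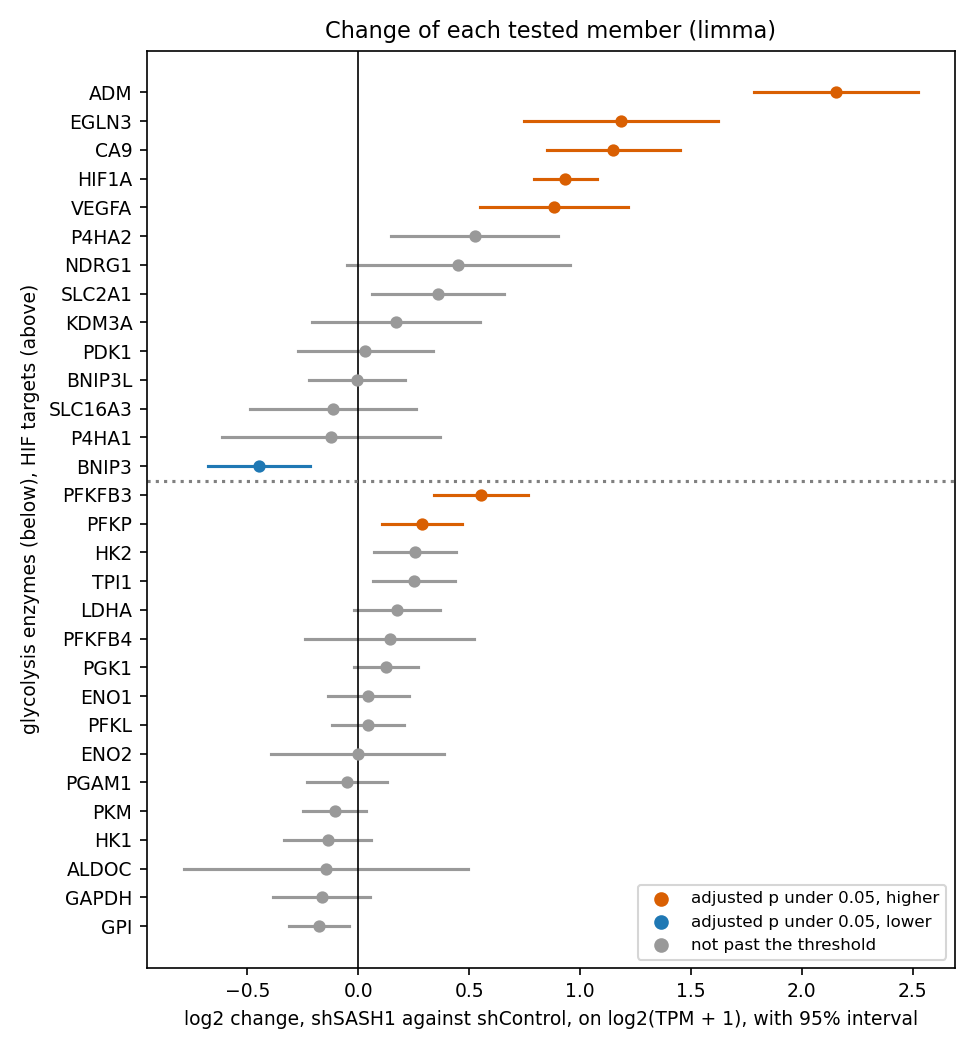
Log2 change of each tested member on log2(TPM + 1), shSASH1 against shControl, with the 95% interval from limma as a bar. Orange marks members called higher, blue marks the 1 called lower (BNIP3) and grey marks those that did not pass. The glycolysis enzymes below the dotted line gather near 0, with PFKFB3 at 0.55 the farthest from it.

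Of the carriers, SLC2A1 (GLUT1), the basal glucose transporter (chromosome 1, 42925375 to 42959176), was at 107 and 104 TPM in shControl and at 150 and 122 TPM in shSASH1. The groups did not overlap, but the shSASH1 pair was spread widely and SLC2A1 did not pass (log2 change 0.36 ± 0.11, adjusted p = 0.0718). Of its 215 tested neighbours 102 were called higher, with a median of 0.38, and centred on them SLC2A1 had a log2 change of -0.04. SLC16A3 (MCT4), the lactate exporter of hypoxic cells, was at 4.28 and 4.31 TPM against 3.79 and 3.99 TPM (adjusted p = 0.563). SLC2A3 (GLUT3) was near absent, at 0.0720 TPM or less in every library and listed at 0 in shSASH1 replicate 2.

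Most glycolysis enzymes changed little in group mean. Of the 16 tested, 14 had group means within 20% of each other, against 43.9% of all tested genes. The margin was chosen after the values were seen, and HK2 (19.8% higher) and TPI1 (19.1% higher) lie just inside it. The groups did not overlap for 10 of the 16, 6 higher and 4 lower. These counts are to be read beside 73.6% of all genes without overlap (41.3% higher and 32.3% lower). At the first step, HK1, the housekeeping hexokinase, was at 162 and 158 TPM in shControl and at 137 and 154 TPM in shSASH1 (log2 change -0.14, adjusted p = 0.215). HK2, the inducible hexokinase and a classical HIF target, was at 85.3 and 85.6 TPM against 97.6 and 107 TPM (0.26 ± 0.07, adjusted p = 0.0525). Neither passed, and within a library the ratio of HK2 to HK1 was 0.528 and 0.541 in shControl and 0.711 and 0.698 in shSASH1. GPI, which turns glucose 6-phosphate into fructose 6-phosphate, was at 170 and 169 TPM against 149 and 150 TPM (-0.18 ± 0.05, adjusted p = 0.0601), and it passed as lower after median-of-ratios scaling (-0.24, adjusted p = 0.0471) and quantile normalization (-0.26, adjusted p = 0.0226).

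The 2 enzymes that rose both act at the phosphofructokinase step, the main control point of the pathway. The call of PFKFB3 held in every alternative that kept all 4 libraries, and that of PFKP did not. PFKFB3 makes fructose 2,6-bisphosphate, the strongest activator of phosphofructokinase (chromosome 10, 6144934 to 6254644, plus strand). It was at 30.2 and 27.4 TPM in shControl and at 42.0 and 43.4 TPM in shSASH1, a 1.48-fold rise (log2 change 0.55 ± 0.08, adjusted p = 0.0118). The platelet-type phosphofructokinase PFKP (chromosome 10, 3066333 to 3137712, plus strand) was at 75.2 and 78.2 TPM against 97.5 and 90.2 TPM, a 1.22-fold rise (0.29 ± 0.07, adjusted p = 0.0373). PFKP no longer passed after median-of-ratios scaling (0.23, adjusted p = 0.111), quantile normalization (0.18, adjusted p = 0.113) or centring on its window (0.13, adjusted p = 0.298). It also missed the threshold without a variance trend (adjusted p = 0.0844) and with the replicate number as a block (0.0733). The liver-type enzyme PFKL was at 129 and 134 TPM against 132 and 139 TPM (adjusted p = 0.612), and the bifunctional relative PFKFB4 at 6.42 and 5.87 against 6.29 and 7.50 TPM (adjusted p = 0.487). The ratio of PFKP to PFKL was 0.583 and 0.584 in shControl and 0.740 and 0.648 in shSASH1, and that of PFKFB3 to PFKFB4 went from 4.71 and 4.68 to 6.69 and 5.79.

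The later, energy-yielding steps of the pathway held the most abundant transcripts of the class, GAPDH and ENO1. GAPDH, the largest with 35.7% of the enzymes' summed TPM in shControl and 32.2% in shSASH1, was at 1855 and 1908 TPM in shControl and at 1774 and 1587 TPM in shSASH1 (log2 change -0.16, adjusted p = 0.190). ENO1, the general enolase, was at 1032 and 1042 TPM against 1027 and 1116 TPM (0.05, interval -0.14 to 0.23). TPI1, triose phosphate isomerase, was at 240 and 231 TPM against 267 and 293 TPM (0.25 ± 0.07, adjusted p = 0.0549). These 3 therefore did not pass, with GAPDH lower and TPI1 higher in both shSASH1 libraries. PGK1, phosphoglycerate kinase, was at 330 and 336 TPM against 357 and 369 TPM (0.12, adjusted p = 0.146), and PGAM1, phosphoglycerate mutase, at 181 and 183 against 184 and 168 TPM (-0.05, adjusted p = 0.611). PKM, pyruvate kinase, was at 462 and 471 TPM against 438 and 429 TPM (-0.11, adjusted p = 0.191). LDHA, the lactate-forming subunit of lactate dehydrogenase, was at 472 and 457 TPM against 498 and 553 TPM (0.17, interval -0.02 to 0.37, adjusted p = 0.136). The isozymes of nerve and brain were minor: ENO2 stood at 13.4 to 17.4 TPM and ALDOC at 1.28 to 2.09 TPM over the 4 libraries, with overlapping groups. LDHB, the subunit that favours pyruvate formation, was at 0.0572 TPM in shControl replicate 1 and listed at 0 in the other libraries. Its exons overlap those of the same-strand gene AC010197.2, and no source used here says how reads shared by overlapping genes were counted, so a listed 0 may not mean absence of the transcript.

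The promoter letters of some enzymes can be set beside those of ADM and CA9. The windows of LDHA (chr11:18394313-18394562, plus strand), the first of 2 listed, and PGK1 (chrX:78103998-78104247, plus strand) are printed as enzymes that did not pass. That of PFKFB3 (chr10:6202682-6202931, plus strand), the second of 2 listed, is printed as one that rose. Matches to ACGTG or GCGTG on either strand are in capitals.
LDHA: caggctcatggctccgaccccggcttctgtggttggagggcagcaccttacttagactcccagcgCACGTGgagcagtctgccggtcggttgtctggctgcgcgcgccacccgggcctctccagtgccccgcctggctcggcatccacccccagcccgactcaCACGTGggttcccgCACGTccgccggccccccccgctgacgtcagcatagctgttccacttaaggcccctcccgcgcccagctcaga
PGK1: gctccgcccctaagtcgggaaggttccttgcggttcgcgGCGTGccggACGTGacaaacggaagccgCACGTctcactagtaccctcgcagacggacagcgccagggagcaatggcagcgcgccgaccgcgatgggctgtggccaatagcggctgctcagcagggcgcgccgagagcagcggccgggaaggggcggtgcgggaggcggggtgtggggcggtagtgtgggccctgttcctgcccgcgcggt
PFKFB3: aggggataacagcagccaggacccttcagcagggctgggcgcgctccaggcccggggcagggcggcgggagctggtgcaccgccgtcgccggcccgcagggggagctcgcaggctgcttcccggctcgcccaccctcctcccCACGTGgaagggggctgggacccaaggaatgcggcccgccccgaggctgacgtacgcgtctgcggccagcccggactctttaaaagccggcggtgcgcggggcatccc
LDHA had 5 matches, some of them paired in CACGTG palindromes, and PGK1 had 3 without a palindrome. PFKFB3 had 2 that form 1 CACGTG palindrome. ALDOC had 5 and the second window of HK2 had 6, again with palindromes counted on each strand, and neither gene passed. PGAM1, PKM and SLC2A1 had 0 matches in their windows and did not pass either. The relation between matches and changes was not tested. At least 4 matches were found in 3.22% of all windows.

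Further HIF targets outside the members are given here first. The genes that feed or branch from glycolysis, given after them, include large changes in both directions. Of 27 tested further HIF targets from a list of 30, 6 rose and 1 fell, 25.9% called, with a median log2 change of 0.26. AK4, a mitochondrial adenylate kinase, rose from 66.9 ± 1.21 to 163 ± 9.35 TPM (limma log2 change 1.27, adjusted p = 0.00216), and ERO1A, an oxidase of the endoplasmic reticulum, from 27.9 ± 0.510 to 61.7 ± 2.80 TPM (1.12, adjusted p = 0.00283). ANKZF1 (1.14, adjusted p = 0.0107) and the lipoprotein receptor VLDLR (0.69, adjusted p = 0.0105) rose as well. The window medians of AK4 and ANKZF1 were 0.57 and 0.50. The share of all tested genes called, for these lists as for the members, was 32%. The difference of any list from that share was not tested.

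Of 9 tested further isozymes of glycolytic steps, 2 rose and 2 fell, 44.4% called. BPGM, which diverts 1,3-bisphosphoglycerate into 2,3-bisphosphoglycerate, was at 43.4 and 43.0 TPM in shControl and at 103 and 132 TPM in shSASH1, a 2.73-fold rise (log2 change 1.41 ± 0.13, adjusted p = 0.00490). The muscle-type phosphofructokinase PFKM rose from 10.5 ± 0.120 to 18.8 ± 4.73 TPM (0.76, adjusted p = 0.0407), a call lost without a filter (adjusted p = 0.0716) and without a variance trend (0.0629). HK3 fell from 2.32 ± 0.594 to 0.202 ± 0.0405 TPM (-1.45, adjusted p = 0.0172), and LDHD, the mitochondrial D-lactate dehydrogenase, from 9.09 ± 1.15 to 2.71 ± 1.09 TPM (-1.47, adjusted p = 0.0173).

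Of 15 tested genes of pyruvate and lactate handling, 3 rose and 4 fell. PDK4, a pyruvate dehydrogenase kinase, was at 1.16 and 1.22 TPM in shControl and at 15.9 and 9.16 TPM in shSASH1 (log2 change 2.58 ± 0.28, adjusted p = 0.00633), whereas PDK2 fell from 3.18 ± 0.252 to 0.553 ± 0.154 TPM (-1.43, adjusted p = 0.0116). PC, pyruvate carboxylase, which refills the citric acid cycle, fell from 86.7 ± 1.22 to 27.3 ± 0.545 TPM (-1.63, adjusted p = 0.00156). PDHA1, a subunit of pyruvate dehydrogenase, fell from 149 ± 1.79 to 76.6 ± 1.63 TPM (-0.95, adjusted p = 0.00247), with a window median of -0.67. PDK3, named after its values were seen, was the most abundant of the 4 kinases in every library, at 29.6 and 26.4 TPM in shControl and at 17.7 and 23.8 TPM in shSASH1, without passing (-0.43, adjusted p = 0.111). The pyruvate dehydrogenase kinases thus held 1 gene that rose, PDK4, 1 that fell, PDK2, and 2 that did not pass, PDK1 and PDK3.

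In the pentose phosphate, glycogen and gluconeogenic branches 4 of 17 tested genes rose and 4 fell, 47.1% called. PYGB, the brain-type glycogen phosphorylase, was at 328 and 323 TPM in shControl and at 123 and 98.3 TPM in shSASH1 (log2 change -1.56 ± 0.12, adjusted p = 0.00343). G6PC3, a glucose-6-phosphatase, fell from 29.8 ± 1.72 to 17.1 ± 0.0306 TPM (-0.76, adjusted p = 0.00651). FBP1, the gluconeogenic bisphosphatase that opposes phosphofructokinase, rose from 1.71 ± 0.637 to 7.81 ± 1.38 TPM (1.71, adjusted p = 0.0108). PGM1, which links glycogen to glycolysis, rose from 63.3 ± 0.910 to 118 ± 12.9 TPM (0.89, adjusted p = 0.00591), with a window median of 0.51. Of 7 tested other glucose carriers, 2 rose and 0 fell, 28.6% called. The sodium-coupled glucose carrier SLC5A1 rose from 2.44 ± 0.0428 to 15.9 ± 5.22 TPM (2.26, adjusted p = 0.00627). The proton-coupled inositol carrier SLC2A13 rose from 0.176 ± 0.0639 to 3.91 ± 0.908 TPM (2.05, adjusted p = 0.00718).

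**Figure D4:**
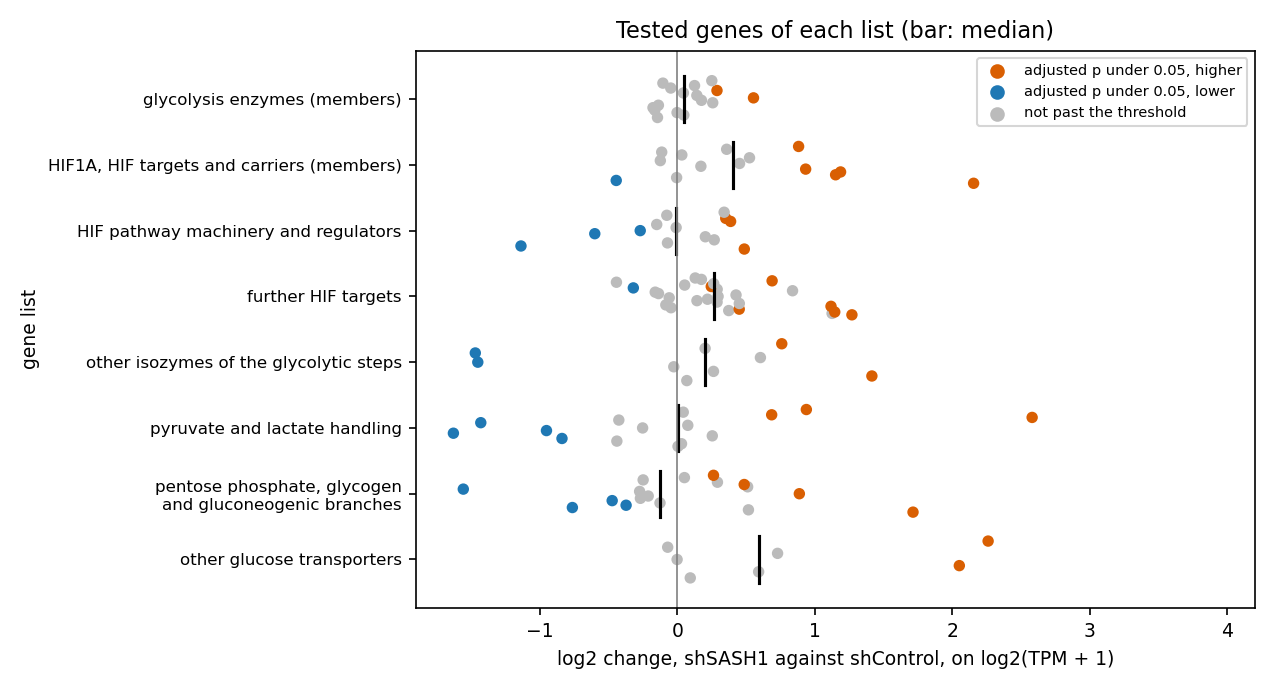
Log2 change of every tested gene in each list, with the list's median as a black bar, orange for genes called higher, blue for genes called lower and grey for the rest. The 16 glycolysis enzymes span -0.18 to 0.55, while pyruvate and lactate handling spans -1.63 to 2.58 around a median of 0.00.

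The calls rest on the spread of both pairs. The median within-group SD over all tested genes was 0.0507 log2 units for the shControl pair and 0.126 for the shSASH1 pair. Without shControl replicate 1 or without shControl replicate 2 the spread comes from the shSASH1 pair alone, and 0 genes passed, members and all others, while 3446 and 3326 genes had an unadjusted p under 0.05. Without shSASH1 replicate 1 or replicate 2 the spread comes from the shControl pair alone. The median log2 change was then 0.09 and 0.02 for the glycolysis enzymes and 0.29 and 0.45 for the other class. Over all tested genes it was 0.09 and 0.03. More genes passed in these fits than with all 4 libraries, among the members and among all tested genes alike. The members that passed there and not with all 4 libraries were HK2, GPI, TPI1 and SLC2A1 without either, P4HA2, KDM3A, GAPDH, PGK1 and LDHA without replicate 1, and NDRG1 and HK1 without replicate 2. Within shSASH1, replicate 2 lay above replicate 1 for 11 of 16 glycolysis enzymes and 7 of 14 of the other class.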

How the data were processed

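Values of 4 libraries were read from 1 table in which the authors deposited TPM per Ensembl gene. Per the submitters' processing notes STAR, DESeq2 and hg38 were used, with neither version nor role named. No source used here gives the counter, the gene lengths or any use of strand. TPM keeps no depth, so the depth behind a value is unknown, and no counting interval is given. All 26518 rows matched GENCODE release 29 (hg38), whose 1-based coordinates are used. Exons of 21 of the 34 members overlap those of another gene, and 2 pseudogene rows (TPI1P2, PGAM1P5) may share reads with their parents, so those members' values are less certain.

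Genes averaging 1 TPM or more were fitted with limma 3.58.1 (R 4.3.3) on log2(TPM + 1), with a variance trend and no block, two-sided, and called at a Benjamini-Hochberg adjusted p of 0.05 over all 14458 genes. In 5 simulated data sets of this comparison over 14458 genes, 200 genes were changed. There 48.0% of changes of 1 log2 unit and 76.8% of those of 2 were recovered, with a false share of 4.80%. Each simulated gene had the same spread in both groups, drawn from the fit's own variance model. The real pairs differed in spread, and 4630 genes were called. These shares therefore describe the simulated setting and not the real calls. Position windows took the tested genes within 10 Mb on either side of a gene, where there were at least 20, and the median deviation of those genes was subtracted per library. The alternatives were a pseudocount of 0.1, no filter, a minimum of 5 TPM, median-of-ratios and quantile scaling, no variance trend, a replicate block, window centring, pseudogene rows added and each library left out. Members and lists were chosen with earlier results of these data known. Named were SASH1, all members and up to 4 called genes per list by absolute log2 change. The values of EGLN1, HIF1AN, ELOB, PDK3, PDP1, MPC1, MIF, SLC16A1 and CXCR4 were added after they were seen. Tables and plots used Python 3.11.15, pandas 2.3.3, numpy 2.4.6 and matplotlib 3.10.9.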

Additional observations from a re-analysis of the deposited data

How the results depend on the processing

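The count of called genes was 4630 and came to 3625 to 4714 under the 8 alternatives that kept all 4 libraries, and to 0 to 7728 with a library left out. The count of glycolysis enzymes called was 2, and it was 4 with a minimum of 5 TPM, 1 without a variance trend, 1 with the replicate block and 0 to 8 with a library left out. Window centring gave 2 again, HK2 and PFKFB3. That of the other class was 6, and 5 after window centring, 7 after quantile normalization and 0 to 9 with a library left out. The log2 ratio of the enzymes' summed TPM was -0.014, and -0.072 after median-of-ratios scaling. Several members changed sign. Centred on windows, CA9 was at -0.044, PDK1 at -0.033, SLC2A1 at -0.041 and PFKL at -0.21. After median-of-ratios scaling PDK1 was at -0.021, PFKL at -0.015 and ENO1 at -0.012, and after quantile normalization PDK1 was at -0.036 and PFKL at -0.055. With 1 library left out the log2 changes ran from -0.0013 to 0.34 for KDM3A, -0.36 to 0.11 for P4HA1, -0.067 to 0.055 for BNIP3L, -0.037 to 0.10 for PDK1, -0.36 to 0.073 for ALDOC, -0.12 to 0.019 for PGAM1, -0.014 to 0.11 for ENO1, -0.18 to 0.18 for ENO2. CA9 is the 1 member among these that was called with no change of setting. The causes were not tested. Replicate numbers are shared between the groups, and the deviations of equally numbered libraries had a correlation of -0.0322 over 14458 genes. With 2 libraries per group both replicate numbers give the same value. It cannot show whether equally numbered libraries shared a culture or batch. With the replicate block 3929 genes passed, and PFKP (adjusted p = 0.0733) was the 1 member whose call changed, beside EGLN2 (0.0510) among the other named genes. The unknown depth limits the members under 1 TPM most.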

Other observations

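MIF, a cytokine gene listed here among the further HIF targets and usually abundant in tumour cells, was at 0.701 and 0.798 TPM in shControl and at 0.835 and 1.31 TPM in shSASH1, under the minimum for testing. No source used here says how reads shared by overlapping genes were counted, and exon overlap was not examined for MIF. The low value may not mean a low level of the transcript, and its cause was not tested. The gene was chosen after its values were seen, as were those that follow. SLC16A1 (MCT1), the second common lactate carrier, rose from 26.2 ± 1.61 to 51.1 ± 3.42 TPM (limma log2 change 0.94, limma adjusted p = 0.00501). It stood well above the lactate exporter SLC16A3 in both groups, already in shControl, where SLC16A3 had a mean of 4.30 TPM. CXCR4, the chemokine receptor and a further HIF target, was at 0.537 and 0.524 TPM in shControl and listed at 0 in both shSASH1 libraries.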
